A study of Mus musculus with 24 samples.

Results

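Socs3, Cebpd and Lcn2 are known targets of interleukin 6 and Stat3 signalling, and their levels were followed in the left ventricle of mice after sham heart surgery. They were chosen for that known role, as a pair of early response genes and a late acute phase product, with earlier results of these data known. They are 3 of the 63758 transcripts in the count table, each read from 1 transcript (uc007moi.2, uc007yhx.1 and uc008jfl.1). Of all transcripts, 8940 passed the filter on low counts and were tested, these 3 among them.

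Interleukin 6 binds its receptor and gp130, which activates Jak kinases, and these phosphorylate the transcription factor Stat3. Stat3 then induces its own brake, Socs3, which blocks gp130 and Jak signalling, and the transcription factor Cebpd, which takes part in the induction of acute phase genes. Lcn2 encodes lipocalin 2, a secreted protein that binds bacterial siderophores. It is an acute phase product of many cell types and is also stored in neutrophil granules, and NF-kB is a further known inducer of it.

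The 24 animals were male C57BL/6 mice (C57BL/6J by the methods of the study) of 8 to 12 weeks, with 8 different mice at each of 3 time points of the surgery, namely 0 min, 45 min and 24 h. All were anesthetized with pentobarbital, given buprenorphine and ventilated. Their chest was opened and a suture was passed round the left anterior descending artery without being tied. The suture was withdrawn at once in the 0 min group and after 45 min in the other groups, and the chest of the 24 h group was then closed. The 0 min mice had therefore also been anesthetized and operated on, and no unoperated mice are part of the comparison. Messenger RNA was sequenced from 1 left ventricular sample per mouse, so that no mouse was followed over time and each value is from 1 animal.

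Libraries held 9887957 to 14091629 counts, and 12972 to 18865 transcripts had at least 1 count. Replicates 6, 7 and 8 at 45 min had the fewest transcripts with a count (13743, 14353 and 12972, against 17114 to 18109 in the other 5 mice of that time). Tests that involve 45 min were therefore also run without these 3 mice, a choice made after the data had been seen. The heart muscle genes Actc1 and Mybpc3 were high in every library, with a summed level of 12305 to 19317 CPM at 0 min and 3578 to 7986 CPM at 24 h (CPM, counts relative to the library total, scaled by the trimmed mean of M values, TMM). Most of the sum was Actc1 (means of 14854 and 371 CPM at 0 min). Of 12 listed heart muscle markers only these 2 could be looked up, since symbols were paired only with transcripts that the study had selected as changed. Who operated on a mouse and which pool its library was in were not used here, so no values within a batch can be given.

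The gene Socs3 lies at chr11:117966079-117970047 on the minus strand, Cebpd at chr16:15887286-15891031 on the plus strand, and Lcn2 at chr2:32384633-32388252 on the minus strand (GENCODE M21, GRCm38). No other annotated gene overlaps Socs3 or Lcn2. Exons of Spidr, on the opposite strand, cover 562 of the 3746 exon bases of Cebpd, and since the strand setting of the counting is not given in the sources used here, reads of both genes cannot be told apart there. The stretches upstream of the start sites of Socs3 and Lcn2 are shown because the letters that Stat factors bind can be seen in both, with the longer spacer in Lcn2. They are taken from the RefSeq promoter table (GRCm38.p6), 5′ to 3′ on the minus strand, at chr11:117969452-117969616 and chr2:32387798-32387989. Capitals mark the match to TTCNNNGAA in Socs3 and to TTCNNNNGAA in Lcn2.
Socs3: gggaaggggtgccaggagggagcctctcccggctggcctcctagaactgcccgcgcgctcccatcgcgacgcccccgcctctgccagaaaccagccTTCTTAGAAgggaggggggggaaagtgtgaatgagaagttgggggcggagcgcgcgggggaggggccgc
Lcn2: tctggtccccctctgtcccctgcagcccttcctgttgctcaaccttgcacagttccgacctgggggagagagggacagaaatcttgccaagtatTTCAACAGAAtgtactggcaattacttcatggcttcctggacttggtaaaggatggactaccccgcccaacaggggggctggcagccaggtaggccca

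The matches TTCTTAGAA and TTCAACAGAA begin at positions -154 and -156 from the RefSeq start sites. Over both strands, TTCNNNGAA was found in 8.30% and TTCNNNNGAA in 6.95% of 32851 promoter windows of 300 bases, and the window of either gene held only 1 of the 2 spacings. The window of Lcn2 also held TTGCTCAA at -216, a match to the C/EBP letters TTGCNNAA that 10.8% of windows hold. Both windows held a match to the NF-kB-like letters GGGNNNNNCC (GGGAGGGGCC in Socs3 at -97 and, on the other strand, GGACTACCCC in Lcn2 at -102), which 50.8% of windows hold. In GENCODE M21, 139 bases of the Lcn2 stretch belong to a coding exon of another transcript of the gene, and the Socs3 stretch lies in an intron of another, non-coding transcript of that gene, so neither is upstream of every annotated transcript. These matches describe the letters only.

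Socs3, the feedback inhibitor, rose early. At 0 min its level was 3.81 CPM in the lowest mouse, 5.46 in the median and 9.39 in the highest, and at 45 min it was 16.8, 59.2 and 159 CPM. All 8 mice at 45 min were above all 8 at 0 min, and the means were 71.6 ± 57.4 and 5.80 ± 1.62 CPM (SD, n = 8). The rise was 3.62 on the log2 scale (95% interval 2.71 to 4.54, 12.3-fold) with an adjusted p of 3.08e-05 in edgeR's quasi-likelihood test, the fourth smallest p-value among 8940 transcripts. It was the only one of the 3 genes past the threshold of 0.05 at 45 min, where 0.727% of transcripts passed in either direction (0.481% higher), and 0.235% were higher with no overlap between the groups.

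The size of the early rise differed widely between mice. Replicates 1, 2 and 4 at 45 min had 23.7, 23.5 and 16.8 CPM, and replicates 7 and 8 had 159 and 158 CPM. Over the 8 mice the highest level was 9.47 times the lowest at 45 min, against 2.47 times at 0 min. Replicates 6, 7 and 8, with few transcripts detected, had 62.8 to 159 CPM, a range that overlaps the 16.8 to 73.7 CPM of the other 5 mice. Without those 3 mice the rise was 2.71 on the log2 scale (adjusted p 0.000463, edgeR).

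At 24 h Socs3 was still above its level at 0 min. The lowest, median and highest mice had 8.01, 28.2 and 60.8 CPM (mean 29.4 ± 15.9, SD, n = 8), and 7 of the 8 were above every mouse at 0 min. The exception was replicate 8, at 8.01 CPM, which was below the highest mouse at 0 min. The rise was 2.34 on the log2 scale (95% interval 1.46 to 3.21, 5.06-fold) with an adjusted p of 0.000598 in edgeR, where 7.68% of transcripts passed in either direction and 4.44% were higher. This comparison shares the 0 min mice with the early one.

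Between 45 min and 24 h Socs3 fell by 1.28 on the log2 scale (95% interval -2.11 to -0.46, adjusted p 0.0435, edgeR), where 9.09% of transcripts passed in either direction and 4.51% were lower. The groups overlapped, and 1 of the 8 mice at 24 h was below all mice at 45 min. The change was -0.38 (adjusted p 0.643) without replicates 6, 7 and 8 at 45 min. It also missed the threshold without 18 of the 24 single mice, with adjusted p-values up to 0.135, so the order of 45 min and 24 h is not settled for Socs3, whereas both were above 0 min.

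**Figure D1:**
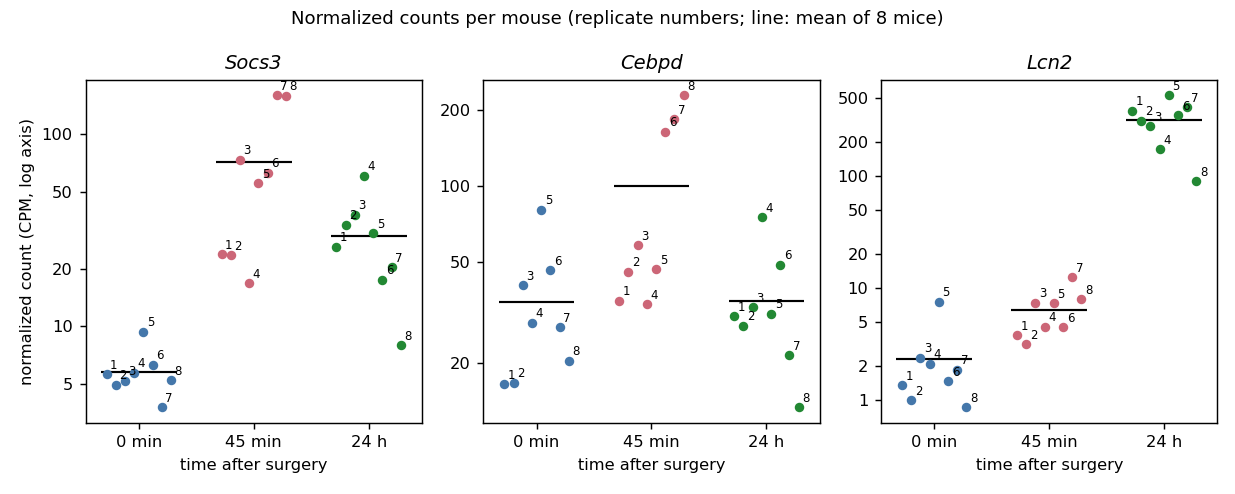
Normalized counts of Socs3, Cebpd and Lcn2 in each of the 24 mice, on log axes in CPM, by time after surgery, with the replicate number beside each point and the mean of 8 mice as a line. Socs3 at 45 min runs from 16.8 to 159 CPM, Cebpd at 45 min splits into 5 mice at 34.1 to 58.5 CPM and 3 mice at 165 to 229 CPM, and Lcn2 at 24 h lies between 89.6 and 523 CPM, above every earlier mouse.

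Cebpd, the transcription factor, was high in 3 mice at 45 min and differed little between the other groups. At 0 min its lowest, median and highest levels were 16.5, 28.2 and 80.9 CPM, at 45 min 34.1, 52.7 and 229 CPM, and at 24 h 13.4, 30.9 and 75.4 CPM. The means were 34.8 ± 21.6, 99.9 ± 79.3 and 35.3 ± 19.1 CPM (SD, n = 8 each), and all 3 ranges overlapped. The difference at 45 min was 1.52 on the log2 scale (95% interval 0.63 to 2.41) and missed the threshold (adjusted p 0.141, edgeR), with 3 of 8 mice above all mice at 0 min. At 24 h the difference from 0 min was 0.02 (95% interval -0.85 to 0.89, adjusted p 0.986).

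The 3 mice with high Cebpd at 45 min were replicates 6, 7 and 8, at 165, 185 and 229 CPM. They are the same 3 mice in which the fewest transcripts were detected. The other 5 mice had 44.1 ± 9.97 CPM (SD, n = 5), from 34.1 to 58.5 CPM. All were above the 0 min median of 28.2 CPM and within the 0 min range, whose upper end, 80.9 CPM, is replicate 5 alone. The next mouse at 0 min had 46.6 CPM. Without replicate 5 at 0 min, and with all mice at 45 min, the difference at 45 min was 1.87 (adjusted p 0.0498, edgeR). Cebpd fell by 1.50 on the log2 scale between 45 min and 24 h (95% interval -2.39 to -0.61, adjusted p 0.0283), and its test over all 3 times gave an adjusted p of 0.0164, where 8.91% of transcripts passed. Without the 3 mice the values were -0.30 (adjusted p 0.738) between 45 min and 24 h, 0.31 (adjusted p 0.753) between 0 and 45 min and an adjusted p of 0.806 over time (edgeR). Without replicate 6, 7 or 8 alone, the adjusted p over time was 0.0537, 0.0643 and 0.0793. With detected transcripts added to the model as a covariate, the difference at 45 min was 1.09 and passed (adjusted p 0.0310), while that between 45 min and 24 h was -0.45 and did not (adjusted p 0.352).

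At 24 h replicate 4, with 15753 transcripts detected, the fewest at that time, had the highest Cebpd (75.4 CPM) and Socs3 (60.8 CPM) of the 24 h group and the second lowest Lcn2 (172 CPM). At 0 min replicate 5 (14778 transcripts) was highest in all 3 genes, but replicate 7, with 14597, had 27.6 CPM of Cebpd, below the median of 28.2, and the lowest Socs3. The part of the detected number in these levels was not tested beyond the fits given here.

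**Figure D2:**
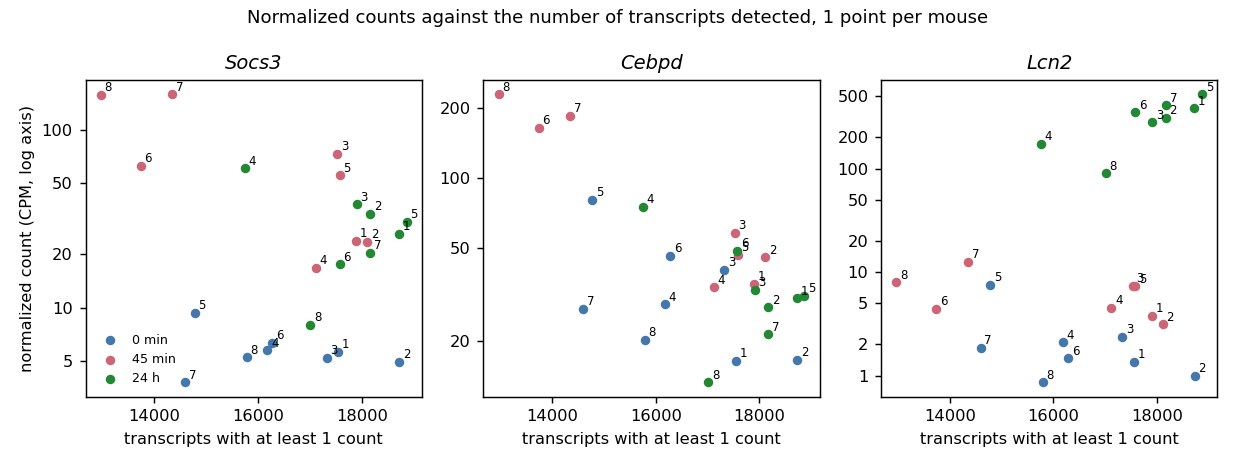
Normalized counts of each gene (CPM, log axis) against the number of transcripts with at least 1 count, with 1 point per mouse and colours for the time points. At 45 min the 3 mice with 12972 to 14353 transcripts hold the 3 highest Cebpd values, while their Lcn2 values, 4.44 to 12.5 CPM, overlap those of the other 5 mice.

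Lcn2, the acute phase product, rose late, with the largest change of the 3 genes. At 0 min its lowest, median and highest levels were 0.861, 1.66 and 7.53 CPM, and at 24 h they were 89.6, 330.2 and 523 CPM. All 8 mice at 24 h were above every mouse at 0 min and at 45 min. The means were 2.32 ± 2.17 and 314 ± 136 CPM (SD, n = 8), and the difference was 7.09 on the log2 scale (95% interval 6.11 to 8.06, 136-fold, adjusted p 2.94e-10, edgeR). This was the smallest p-value of all 8940 transcripts, and 0.996% of transcripts were higher with no overlap in this comparison. The levels at 0 min rest on few reads, 9 counts in replicate 8 (0.861 CPM, exact Poisson 95% interval 0.394 to 1.63, counting error only) and 77 in replicate 5.

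At 45 min Lcn2 stood at 3.13, 5.90 and 12.5 CPM in the lowest, median and highest mouse (mean 6.37 ± 3.08, SD, n = 8). The difference from 0 min was 1.46 on the log2 scale (95% interval 0.64 to 2.28) and missed the threshold (adjusted p 0.119, edgeR), and 2 of the 8 mice were above all mice at 0 min. All others were within the range set by the single high mouse at 0 min, replicate 5. Without that mouse the difference was 2.04 (adjusted p 0.00256), and DESeq2 gave 1.49 with all mice (adjusted p 0.0186). From 45 min to 24 h Lcn2 rose by 5.63 on the log2 scale (95% interval 4.72 to 6.53, 49.4-fold, adjusted p 9.64e-09), again the smallest p-value of all transcripts, where 4.59% of transcripts were higher and 0.682% were higher with no overlap. Without replicates 6, 7 and 8 at 45 min this rise was 5.90, and the difference between 0 and 45 min was 1.15 (adjusted p 0.322). Lcn2 was thus higher at 24 h than at 45 min. With all mice, its difference between 0 and 45 min missed the adjusted threshold in edgeR and passed it in DESeq2.

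**Figure D3:**
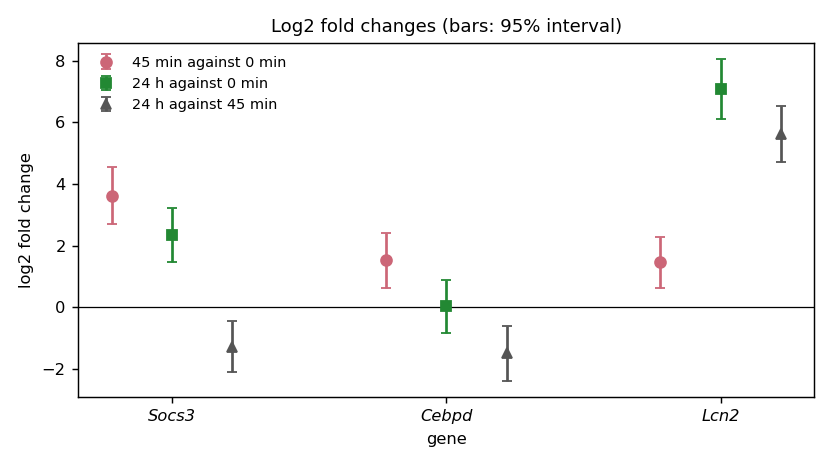
Log2 fold changes of Socs3, Cebpd and Lcn2 in the 3 comparisons of time points, with 95% intervals from edgeR's quasi-likelihood fit. Socs3 changed most at 45 min (3.62), Lcn2 at 24 h (7.09), and the interval of Cebpd at 24 h against 0 min runs from -0.85 to 0.89.

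The early feedback gene and the late product were then set against each other within each mouse, as the difference of their log2 levels (0.5 added to CPM). Only changes of such a difference between time points are read, since transcript lengths were not used. The means of Socs3 relative to Lcn2 were 1.36 ± 0.61, 3.08 ± 0.77 and -3.43 ± 0.94 in the order of time (SD, n = 8 each, log2). It moved up by 1.72 at 45 min, with 7 of 8 mice above all mice at 0 min. A two-sided exact permutation test gave p = 0.000622 (0.000799 after adjustment over 9 comparisons). Without replicates 6, 7 and 8 at 45 min the shift was 1.26 (exact permutation test, adjusted p 0.00799). It moved by -4.79 from 0 min to 24 h, with all 8 mice below (exact permutation test, adjusted p 0.000233). The p-value before adjustment was there 0.000155, the smallest that 12870 splits of 8 against 8 can give.

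Socs3 relative to Cebpd had means of -2.32 ± 0.60, -0.51 ± 0.60 and -0.29 ± 0.56 in the same order. It was up by 1.81 at 45 min and by 2.03 at 24 h, with no overlap with 0 min in either case (exact permutation tests, adjusted p 0.000233 each). Between 45 min and 24 h it differed by 0.22 (exact permutation test, adjusted p 0.524). Without replicates 6, 7 and 8 the difference at 45 min was 1.93 (exact permutation test, adjusted p 0.00117), so the rise of Socs3 beyond that of Cebpd was as large without the 3 mice with high Cebpd. Cebpd relative to Lcn2 was 3.68 ± 0.43 at 0 min and 3.59 ± 0.92 at 45 min, a difference of -0.10 (exact permutation test, p = 0.792), and was -3.14 ± 0.96 at 24 h. Without the 3 mice the difference at 45 min was -0.68 and passed (exact permutation test, adjusted p 0.0201), with Lcn2 up by more than Cebpd.

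Mouse by mouse within a time point, the genes were compared in 7 relations over 8 mice each, with Pearson's r and Spearman's rho (14 exact permutation tests of log2 levels, 40320 pairings each). Cebpd at 45 min was left out because its values fall into groups of 5 and 3 mice. None of the 14 tests passed after adjustment, and the smallest adjusted p was 0.0672.

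At 45 min Socs3 and Lcn2 gave r = 0.852 (exact permutation p = 0.00960, adjusted 0.0672) and rho = 0.810 (exact permutation p = 0.0218, adjusted 0.102). Replicate 7 was highest in both, with 159 CPM of Socs3 and 12.5 CPM of Lcn2, and without the 2 mice farthest from the median (replicates 4 and 7) r was 0.852. At 24 h the same genes gave r = 0.359 (exact permutation p = 0.369) and rho = -0.119, and r = -0.302 without replicates 4 and 8. The sign at 24 h turned on 1 mouse. Replicate 8, lowest in all 3 genes (8.01, 13.4 and 89.6 CPM), gave r = -0.73 when left out, while leaving out replicate 4 gave r = 0.74. The mouse with the most Lcn2, replicate 5 at 523 CPM, had 30.5 CPM of Socs3, near the median.

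At 0 min Cebpd and Lcn2 gave r = 0.851 (exact permutation p = 0.00754, adjusted 0.0672) and rho = 0.762, with r = 0.682 without replicates 1 and 5. Socs3 and Lcn2 at 0 min gave r = 0.701 (exact permutation p = 0.0923), which rested on replicate 5, since without replicates 5 and 7 r was 0.279 and without replicate 5 alone it was -0.08. Socs3 and Cebpd gave r = 0.682 at 0 min (exact permutation p = 0.0663) and 0.547 without replicates 5 and 7. At 24 h they gave r = 0.760 (exact permutation p = 0.0335, adjusted 0.103), which rested on replicates 4 and 8, since r was -0.222 without them. Cebpd and Lcn2 at 24 h gave r = 0.233 (exact permutation p = 0.560), and r = -0.206 without replicates 4 and 8.

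**Figure D4:**
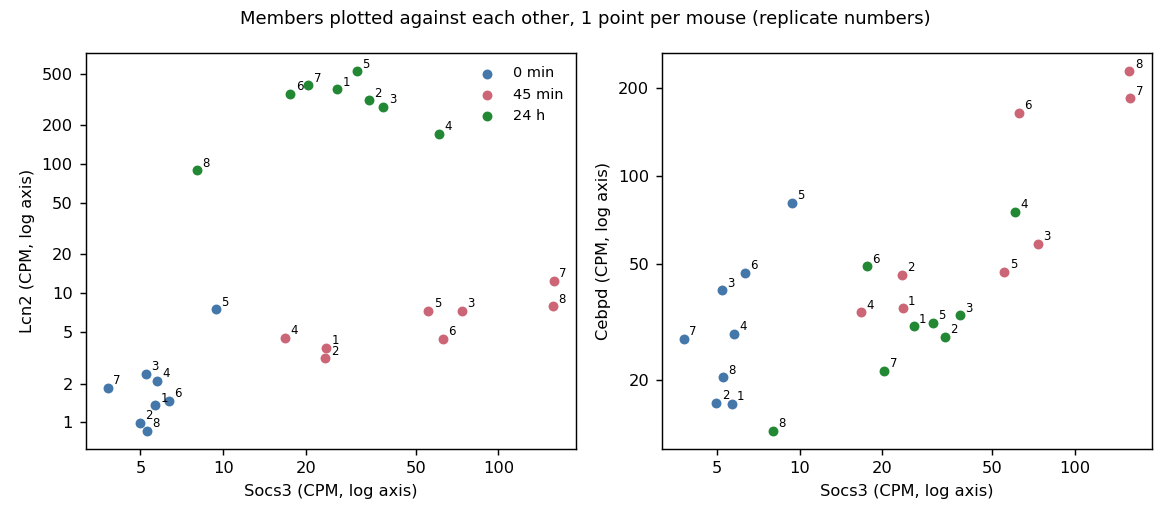
Each mouse by its levels of Socs3 and Lcn2, and of Socs3 and Cebpd (CPM, log axes), with replicate numbers and colours for the time points. The 8 mice at 24 h lie far above the others in Lcn2, at 89.6 to 523 CPM, while their Socs3 values, 8.01 to 60.8 CPM, overlap those at 45 min.

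The other genes of the pathway were taken from fixed lists. Symbols were paired only with transcripts that the study had selected on these samples as changed, so the counts of a list are not independent evidence of its direction. Of 25 genes of the interleukin 6 family and its signalling chain, 2 were paired and 1 was tested, the cytokine Clcf1, which changed by 0.16 at 45 min (adjusted p 0.959) and 1.02 at 24 h (adjusted p 0.0504, edgeR). Osm, the cytokine oncostatin M, was under the filter on low counts, with means of 0.124, 0.261 and 1.37 CPM (library total alone) at the 3 times. Without replicates 6, 7 and 8 at 45 min it passed the filter, but only through its levels at 24 h. The difference of 3.11 on the log2 scale from 0 min to 24 h in that fit is therefore not read as a test of a rise.

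Of 17 early targets of Stat3, NF-kB and AP-1, 8 were tested, Socs3 and Cebpd included. At 45 min 5 of them rose and none fell (0.481% of all transcripts rose), with a median of 1.39 on the log2 scale against 0.01 over all transcripts. At 24 h 1 of the 8, Socs3, was above 0 min (4.44% of all transcripts), with a median of 0.19, and 6 of the 8 fell between 45 min and 24 h (4.51% of all transcripts). These counts differed when the 3 mice with few transcripts detected were left out, which also cut the 45 min group to 5 mice. The part of the smaller group in this was not tested. Without those 3 mice 9 early targets were tested, and 2 rose at 45 min (Socs3 and Gadd45b, a stress-induced gene, by 2.16, adjusted p 0.00424, edgeR). Over all transcripts of that fit, 28 were higher at 45 min and 579 at 24 h, and 598 differed in either direction between 45 min and 24 h. The shares of the 8940 transcripts do not apply to it. At 24 h 3 were above 0 min (Socs3, Icam1 and Il4ra), and 3 fell between 45 min and 24 h. Il4ra, at means of 0.191, 0.366 and 1.04 CPM (library total alone), passed the filter only through its levels at 24 h. Its call at 24 h is therefore not read as a test of a rise. In the fit of all mice Nfkbia, the inhibitor of NF-kB, rose by 0.95 at 45 min (adjusted p 0.00382) and stood at -0.11 at 24 h (edgeR). Fos, a subunit of AP-1, rose by 2.17 at 45 min (adjusted p 0.0138) and fell by 2.68 from 45 min to 24 h (adjusted p 0.000402). Without the 3 mice the differences at 45 min were 0.77 for Nfkbia (adjusted p 0.0747) and 1.72 for Fos (adjusted p 0.138).

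Of 27 acute phase products, 12 were tested, Lcn2 included. At 45 min 2 of them passed as higher, the metallothionein Mt2 and the pentraxin Ptx3 (0.481% of all transcripts). At 24 h 10 passed as higher and none as lower (4.44% of all transcripts were higher), with a median of 2.76 on the log2 scale against 0.00 over all transcripts. Without the 3 mice 1 of the 12, Ptx3, passed as higher at 45 min (2.82, adjusted p 0.000547, edgeR) and Mt2 missed the threshold (1.19, adjusted p 0.138). Again 10 passed as higher at 24 h, and over all transcripts of that fit 28 were higher at 45 min and 579 at 24 h. Ptx3 had 0.159 to 1.10 CPM at 0 min and passed the filter through its levels at 45 min and 24 h. Its calls are therefore not read as tests of a rise. With all mice Mt2 rose by 2.08 at 45 min (adjusted p 0.00333) and by 3.50 at 24 h (adjusted p 1.78e-06, edgeR). The protease inhibitor Serpina3n changed by 0.99 at 45 min (adjusted p 0.370) and rose by 5.25 at 24 h (adjusted p 2.35e-09), from 11.2 ± 9.64 to 426 ± 126 CPM (SD, n = 8). Lrg1, a secreted leucine-rich glycoprotein, changed by 0.51 at 45 min (adjusted p 0.952) and rose by 2.58 at 24 h (adjusted p 2.13e-05).

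**Figure D5:**
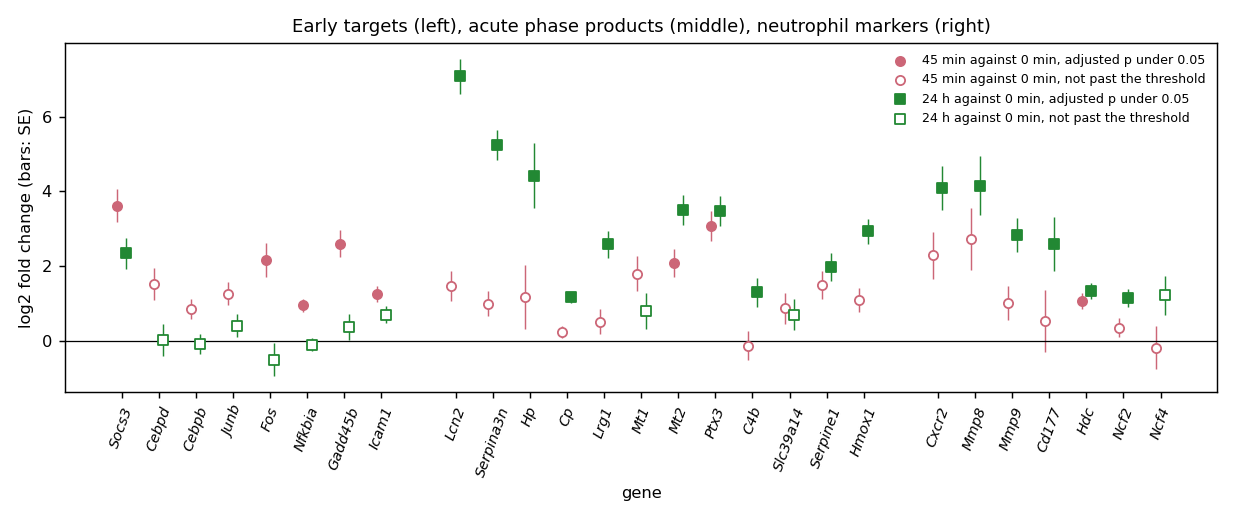
Log2 fold changes with standard errors of the tested early targets and acute phase products at 45 min and at 24 h against 0 min, with filled points for adjusted p under 0.05. Of the 8 early targets 5 are filled at 45 min and 1 at 24 h, and of the 12 acute phase products 2 are filled at 45 min and 10 at 24 h.

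Neutrophils carry Lcn2 in their granules, so their markers are given beside it. In bulk tissue, more cells of a type and more RNA per cell cannot be told apart. Of 20 neutrophil markers 7 were tested. At 45 min 1 rose (the histidine decarboxylase gene Hdc, 1.06, adjusted p 0.00662, edgeR) and at 24 h 6 passed as higher, against 0.481% and 4.44% of all transcripts. Without the 3 mice Hdc stood at 0.94 at 45 min (adjusted p 0.0878). Mmp9, a granule protease, stood at 1.01 at 45 min (adjusted p 0.757) and rose by 2.83 at 24 h (adjusted p 0.000123, edgeR). Cxcr2, a chemokine receptor, stood at 2.29 at 45 min (adjusted p 0.119) and at 4.08 at 24 h (adjusted p 3.8e-05, edgeR). The summed level of the 7 markers was 7.15 to 18.8 CPM at 0 min, 9.82 to 33.2 CPM at 45 min and 14.97 to 78.6 CPM at 24 h, and Cxcr2, Mmp8 and Cd177 were at 0 in at least 1 mouse at 0 min. These 3 genes had means of 0.230, 0.167 and 0.237 CPM at 0 min and passed the filter largely through their levels after 0 min. All were among the 6 called at 24 h, and their calls there are not read as tests of a rise.

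Mouse by mouse at 24 h, the sum of the neutrophil markers and Lcn2 did not follow one order. Replicate 3 had the highest sum, 78.6 CPM, with 279 CPM of Lcn2, and replicate 1 had the second lowest sum, 17.5 CPM, with 380 CPM of Lcn2. Replicate 8 was lowest in both, at 14.97 and 89.6 CPM. At 0 min and 45 min the mouse with the highest sum also had the most Lcn2 (replicate 5 with 18.8 and 7.53 CPM, and replicate 7 with 33.2 and 12.5 CPM). The part of neutrophils in the level of Lcn2 was not tested.

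The transcripts most alike to each gene over all 24 mice are given as a description, by Pearson's r of log2 CPM, in which time, scaling and the detected number are shared by all points. For Lcn2 they were Serpina3n (r = 0.987), the matrix protease gene Mmp3 (0.950) and Prg4, which encodes lubricin (0.942). Mean Mmp3 was 2.104, 3.35 and 28.5 CPM and mean Prg4 4.83, 5.62 and 40.0 CPM at the 3 times, so each was low at 45 min and high at 24 h as Lcn2 was. For Socs3 they were Rnd1 (r = 0.906), Tmem252 (0.899) and the semaphorin gene Sema7a (0.888), and mean Rnd1 was 1.75, 6.90 and 3.45 CPM. For Cebpd they were uc007mmy.1 (r = 0.937), uc007xeq.1 (0.916) and Gatsl3 (0.911), of which the first and the second had no paired symbol. Cebpd was number 31 in the order of likeness to Socs3 (r = 0.724), and Lcn2 was number 1150 (r = 0.376). In the order of likeness to Cebpd, however, Socs3 was only number 1005. The profiles of Lcn2 and Cebpd gave r = -0.06.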

How the data were processed

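Poly(A) RNA of 24 left ventricular samples was made into libraries with a directional mRNA kit and sequenced. Per the labels and the methods of the study, the authors trimmed reads with cutadapt 1.9.1, mapped them to mm10 with TopHat2 2.1.0 and Bowtie2 2.2.9, and counted them per UCSC transcript with HTSeq 0.6.0. The deposited values are raw counts. Not given in the sources used here are the counting mode, its strand setting and which release of the UCSC transcripts was used. The authors' selected list of changed transcripts was used only to pair transcripts with gene symbols.

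The counts were tested with edgeR 4.0.16 in R 4.3.3. Transcripts were kept by filterByExpr (minimum count 10, minimum total 15), libraries were scaled by TMM, and time was the factor of a quasi-likelihood model of all 24 samples. Adjusted p-values are Benjamini-Hochberg values over the 8940 tested transcripts, called below 0.05. The study itself used DESeq2, which was run here as an alternative (DESeq2 1.42.0), as were limma-voom (limma 3.58.1), other scale factors and filters, a replicate block, detected transcripts as a covariate, a fit on the compared time points alone, other values added to CPM and leaving out each sample. Ratios and relations used log2 of CPM plus 0.5 and exact two-sided permutation tests, computed with numpy 2.4.6 and checked against scipy 1.17.1. The edgeR fit and the permutation tests were tested on simulated data. Intervals from counts cover counting error only.

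The 3 genes and the gene lists (the interleukin 6 family, early targets, acute phase products, and markers of neutrophils, monocytes and macrophages, heart muscle cells, endothelium and fibroblasts) were chosen with earlier results of these data known. Beyond the 3 genes, the text names at most 4 genes per list, those with the highest mean CPM, apart from Osm, Ptx3, Gadd45b, Icam1, Il4ra, Mmp8, Cd177 and Ms4a6c, which were named after their values were seen, and the 3 transcripts most alike to each gene. The 24 samples came from separate mice, and no pair of samples of a time point agreed within sampling noise (lowest chi-square per degree of freedom 10.3 over 84 pairs). One gene that this rule names is not reported here.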

Additional observations from a re-analysis of the deposited data

Results flagged for a closer look

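In the 18 groups of 8 mice examined with Dixon's test (the levels in CPM and the log2 ratios of the 3 genes), the gap of the highest or lowest mouse to its neighbour, as a part of the range, passed the critical value of 0.526 in 3. All were the same mouse, replicate 5 at 0 min. Its levels were 9.39 CPM of Socs3, 80.9 CPM of Cebpd and 7.53 CPM of Lcn2, with the nearest other mouse at 6.33, 46.6 and 2.38 CPM. On the log2 scale the largest gap at 0 min was 44.5% of the range for Socs3, 35.0% for Cebpd and 57.7% for Lcn2. Only Lcn2 is thus past the critical value on that scale. Chance flags about 1 in 20 groups where values have a normal spread, which was not tested here, and the 3 values come from 1 animal. This mouse had 14778 transcripts detected, the second fewest at 0 min, and the highest summed level of neutrophil markers at that time, 18.8 CPM against 7.15 to 11.6 CPM in the others. The part of either in these levels was not tested. Without this mouse the differences at 45 min passed the threshold for Cebpd (1.87 on the log2 scale, adjusted p 0.0498) and for Lcn2 (2.04, adjusted p 0.00256) in edgeR's quasi-likelihood test.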

How the results depend on the processing

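The rises of Socs3 at 45 min and at 24 h, the rises of Lcn2 at 24 h against 0 and 45 min, and the ratios that passed kept their direction and their side of the threshold in every alternative run. Leaving out 1 mouse at a time gave 3.37 to 3.81 for Socs3 at 45 min and 6.87 to 7.62 for Lcn2 at 24 h (log2). The cause of the changes below was not tested.

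With DESeq2, 100 transcripts passed at 45 min against 0 min and 1203 over time (65 and 797 with edgeR), and Cebpd (1.56, adjusted p 0.0266) and Lcn2 (1.49, adjusted p 0.0186) passed at 45 min. With detected transcripts as a covariate, 103 passed at 45 min and 1062 at 24 h against 0 min (687 without it), Cebpd passed at 45 min (1.09, adjusted p 0.0310), and between 45 min and 24 h Socs3 (-0.56, adjusted p 0.357) and Cebpd (-0.45, adjusted p 0.352) did not. With limma-voom, Socs3 (-1.04, adjusted p 0.113) and Cebpd (-1.26, adjusted p 0.0563) between 45 min and 24 h and Cebpd over time (adjusted p 0.0583) missed the threshold. A fit on the compared time points alone gave -1.32 for Socs3 (adjusted p 0.113) and -1.54 for Cebpd (adjusted p 0.0534) between 45 min and 24 h. Without replicates 6, 7 and 8 at 45 min, chosen after seeing the data, 1064 transcripts passed at 24 h against 0 min, Socs3 gave -0.38 and Cebpd -0.30 between 45 min and 24 h, Cebpd over time had an adjusted p of 0.806, and Cebpd relative to Lcn2 at 45 min passed (-0.68, exact permutation test, adjusted p 0.0201). With 1 added to CPM, Cebpd relative to Lcn2 at 45 min changed sign to 0.070 (-0.10 with 0.5 added).

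The replicate block (replicate number as a factor) gave 1.64 for Lcn2 at 45 min (adjusted p 0.0300), -1.13 for Socs3 (adjusted p 0.186) and -1.34 for Cebpd (adjusted p 0.0946) between 45 min and 24 h, and an adjusted p of 0.0790 for Cebpd over time; the counts were 49, 617 and 656 in the 3 comparisons and 676 over time. Same-numbered samples correlated by -0.541 to 0.583 across 45 min and 0 min, and 1 of 8 correlated best with its own number there, 2 across 24 h and 0 min and 3 across 24 h and 45 min, so the numbers were not taken to pair the mice. The block changed no other call of the 3 genes.

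Leaving out 1 mouse at a time gave 1.23 to 1.87 for Cebpd and 1.24 to 2.04 for Lcn2 at 45 min, -0.28 to 0.33 for Cebpd at 24 h against 0 min (10 of 24 below 0, none past the threshold), -1.59 to -1.03 for Socs3 and -1.83 to -1.22 for Cebpd between 45 min and 24 h (past the threshold in 6 and 15 of 24), and adjusted p-values of 0.00612 to 0.0793 for Cebpd over time. Cebpd relative to Lcn2 at 45 min ran from -0.31 to 0.04. The counts ran from 524 to 1668 between 45 min and 24 h (524 without replicate 2 and 1668 without replicate 4 at 24 h) and from 585 to 1291 over time (1291 without replicate 4 at 24 h). The relations ran from -0.084 to 0.88 (Socs3 and Lcn2 at 0 min), 0.80 to 0.90 (the same at 45 min, adjusted p 0.0250 without replicate 4), -0.73 to 0.74 (the same at 24 h), 0.65 to 0.95 (Cebpd and Lcn2 at 0 min, adjusted p 0.0389 without replicate 6), -0.73 to 0.70 (the same at 24 h) and 0.52 to 0.94 (Socs3 and Cebpd at 24 h, adjusted p 0.0431 without replicate 6), all by exact permutation tests. Levels of Lcn2 at 0 min rest on 9 to 77 counts per mouse.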

Other observations

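Markers of other cell types were measured beside the 3 genes, in lists paired with transcripts that the study had selected on these samples, so the counts are not independent evidence of direction. Of 14 monocyte and macrophage markers 11 were tested, none passed the test at 45 min and all 11 passed as higher at 24 h (4.44% of all transcripts did). The median at 24 h was 2.81 on the log2 scale against 0.00 over all transcripts (edgeR's quasi-likelihood test). Their summed level was 42.9 to 71.7 CPM at 0 min, 45.4 to 84.8 CPM at 45 min and 92.8 to 421 CPM at 24 h. In the fit without replicates 6, 7 and 8 at 45 min, 12 transcripts of the list were tested. Of these 1 rose at 45 min (Ms4a6c, a membrane protein gene, by 1.08, adjusted p 0.0282, edgeR) and 12 passed as higher at 24 h. Over all transcripts of that fit, 28 were higher at 45 min and 579 at 24 h. The transcript that this fit added passed the filter only through its levels at 24 h, so its call there is not read as a test of a rise. Mrc1, the mannose receptor, rose by 0.97 (adjusted p 0.00372) and Cd68, a lysosomal protein of macrophages, by 1.63 (adjusted p 0.0104) at 24 h. Arg1, the arginase gene, had 0 to 0.685 CPM at 0 min, at most 0.767 CPM at 45 min and 8.82 to 158 CPM at 24 h. It passed the filter only through its levels at 24 h, so its call there is not read as a test of a rise. Others of the 11 were also low at 0 and 45 min, so the count of 11 is not read as such a test either.

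Of 9 endothelial markers only 2 were paired and tested, the selectins Sele and Selp. Both passed as higher at 45 min, at 2.23 (adjusted p 0.00101, edgeR) and 2.27 (adjusted p 0.0138), and at 24 h, at 1.43 and 4.05. Over all transcripts 0.481% and 4.44% were higher at these times. Selp had at most 0.978 CPM at 0 min and passed the filter through its later levels, so its calls are not read as tests of a rise. Without replicates 6, 7 and 8 at 45 min the early differences were 2.14 (adjusted p 0.00385) for Sele and 2.097 for Selp (adjusted p 0.111). Of 11 fibroblast and mesothelial markers 3 were tested. None passed at 45 min and 2 rose at 24 h (4.44% of all transcripts), Col3a1 by 0.75 and Prg4 by 3.05, while Col1a2 stood at 0.47. Of 12 heart muscle markers only 2 were paired and tested, Actc1 and Mybpc3, which fell by 1.38 and 0.81 at 24 h. Of all transcripts 7.68% passed then in either direction. Whether the other heart muscle markers changed is not known here, and the part of cell content in these values was not tested.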
